A study of Homo sapiens with 18 samples.

Results

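The contractile actin cytoskeleton was followed through 10 genes, chosen by their symbols with earlier results of these data known. The genes were ACTA2, TAGLN, CNN1, CNN2, MYL9, TPM1, TPM2, CALD1, ACTN1 and FLNA. Of these 10, 9 had a row among the 12853 genes of the RNA-seq table. CNN1 was not analysed here. RNA was sequenced from 6 untreated ovarian cancer cell lines with 3 replicate libraries each, giving 18 libraries in 3 pairs of a platinum-sensitive line and its resistant counterpart. A2780 is a sensitive line labelled as endometrial or ovarian, and CP70 (A2780cp70) is a resistant derivative of it that was selected in vitro. The PEA lines share a donor with high-grade serous ovarian cancer and came from ascites fluid, PEA1 from a time when no platinum had been given and PEA2 from a later, resistant relapse. PEO1 and PEO4 likewise came from a single patient with high-grade serous disease after platinum treatment, PEO1 before and PEO4 after clinical resistance appeared. All lines were grown in the same medium with serum and no label names an engineered allele. Each pair is a single lineage, so a difference within a pair describes those lines. No label states that replicates came from separate cultures, so the p-values measure the spread between these libraries, which may be technical.

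Contraction in smooth muscle and in stromal cells is driven by myosin sliding along actin filaments that are wrapped by tropomyosin and held together by crosslinking proteins. Many of the genes involved share a control by serum response factor (SRF), which binds a sequence called the CArG box and acts with the actin-sensing cofactors MKL1 and MKL2 or, in muscle, with myocardin (MYOCD). The same genes are used at lower level by other cells to build stress fibres, and ACTA2, TAGLN and CNN1 are widely read as marks of smooth muscle cells and myofibroblasts.

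Expression is given as log2 CPM, the log2 of a gene's reads relative to the size of its library (CPM), with 0.5 reads added to each count. Differences are resistant minus sensitive on that scale (log2FC) with their standard error (SE) and a false discovery rate (FDR) from limma, adjusted over all 12853 genes, and a gene was called at an FDR below 0.05. Libraries held between 1344098 and 7067336 reads on the listed genes, and 3 reads corresponded to between 0.452 and 2.18 CPM, which covers counting error only. Of the 9 genes, 6 had at least 3 reads in every library (CNN2, TPM1, TPM2, CALD1, ACTN1 and FLNA), whereas ACTA2, TAGLN and MYL9 fell below that in at least 1 library. In bulk RNA, fewer cells that express a gene and less RNA per cell cannot be told apart.

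The contractile actin genes fell more often than they rose in CP70 and PEA2, and they moved both ways in PEO4. Between A2780 and CP70, 5 of the 9 genes were lower in CP70 (ACTA2, TAGLN, TPM1, CALD1 and FLNA) where 17.7% of all genes were called lower, and 0 were higher where 22.2% of all genes were. Between PEA1 and PEA2, 6 were lower in PEA2 (TAGLN, MYL9, TPM1, TPM2, ACTN1 and FLNA) against 29.4% of all genes, and ACTA2 alone was higher against 32.5%. Between PEO1 and PEO4, 4 were lower in PEO4 (CNN2, TPM1, CALD1 and FLNA) against 21.9% of all genes, and 3 were higher (ACTA2, MYL9 and TPM2) against 19.6%.

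Their median log2FC was -0.62 in CP70, -0.78 in PEA2 and -0.19 in PEO4, beside medians of -0.03, 0.01 and -0.02 over the whole table. With the additional requirement of a |log2FC| above 2, 0 of the 9 genes remained in the A2780 pair (9.06% of all genes), 2 in the PEA pair (TAGLN and TPM1, against 14.1%) and 1 in the PEO pair (MYL9, against 6.22%). TPM1 and FLNA were called lower in the resistant line of all 3 pairs, which held for 155 genes or 1.21% of the table. The count of 5 in the A2780 pair is the least firm, since it fell to 3 without A2780 replicate 1 or without any one of the 3 CP70 replicates. In the PEA pair, other scalings of the libraries raised the count of lower genes from 6 to 8.

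**Figure D1:**
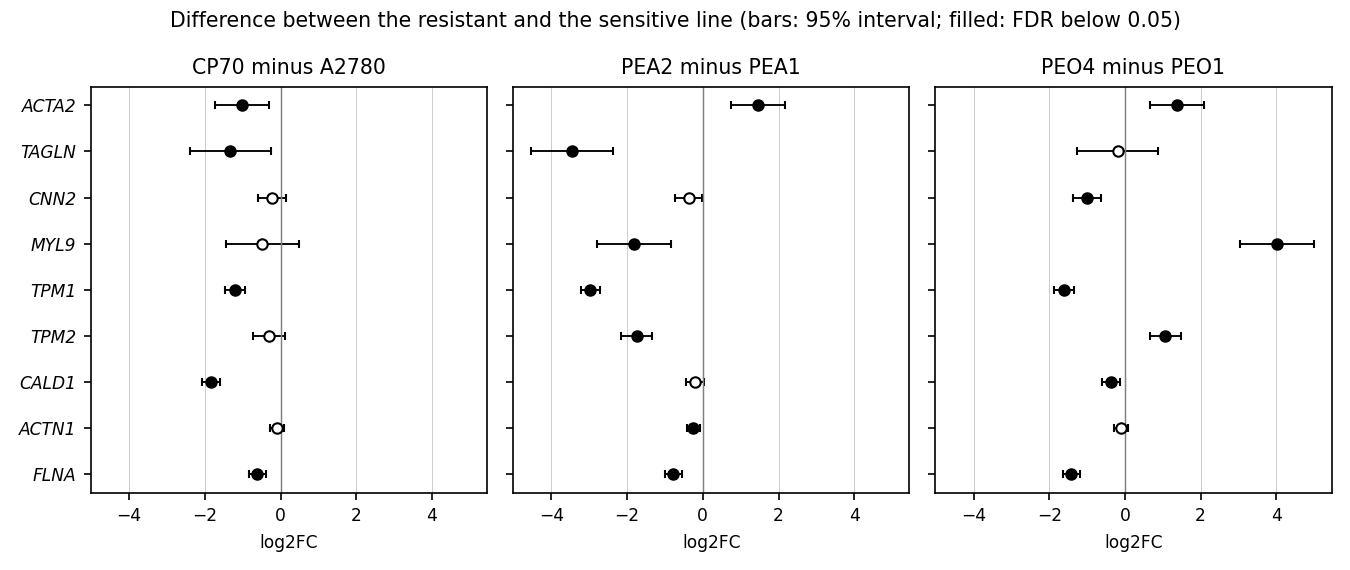
log2FC of each of the 9 genes (vertical axis) in the 3 pairs, resistant minus sensitive on the log2 CPM scale (horizontal axis), with bars for the 95% interval from limma over 18 libraries and filled points at an FDR below 0.05. All 9 points lie below 0 in CP70, those of TAGLN, CNN2, TPM1, CALD1, ACTN1 and FLNA lie below 0 in each panel, of which TPM1 and FLNA are filled in each, and MYL9 reaches 4.01 in PEO4 after lying at -1.82 in PEA2.

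The sequence before the start of these genes was read for the CArG box named above. RefSeq promoter windows (assembly GRCh38.p14), each from 250 bases before to 50 bases after a start, were found for 8 of the 10 genes in 16 windows, and TAGLN and MYL9 had none. The CArG box reads the same as a pattern on both strands, so 1 search covers both. A full match was present in CNN2, FLNA and 1 of the 4 windows of ACTN1, thus in 3 of the 8 genes, and in 1.6% of all 27305 genes with a window. A looser search let 1 of the 6 central letters (A or T in a full match) differ, with CC and GG kept at the ends. It added ACTA2, with 2 such places in 1 of its 2 windows, and CALD1. That gave 5 of the 8 genes beside 9.88% of all genes. The windows of TPM1, TPM2 and CNN1 held neither. The matches are shown 5′ to 3′ on the strand of the gene with 15 bases on each side, and capitals mark the box. By window, a full match was in 3 of the 16 windows of these genes and in 1.29% of all 35116 windows. The genes were gathered as a type that SRF controls, so a larger share than over all genes was built into their choice. A match describes these letters and not a bound site, and its part in the expression changes was not tested.
CNN2 full match, chr19:1026504-1026543, plus strand, GRCh38.p14: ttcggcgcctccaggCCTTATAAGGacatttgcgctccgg
FLNA full match, chrX:154374704-154374743, minus strand, GRCh38.p14: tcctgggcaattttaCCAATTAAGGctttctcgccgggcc
ACTN1 full match, chr14:68977713-68977752, minus strand, GRCh38.p14: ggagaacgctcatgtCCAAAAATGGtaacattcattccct
ACTA2 with 1 letter off, farther from the start, chr10:88952870-88952909, minus strand, GRCh38.p14: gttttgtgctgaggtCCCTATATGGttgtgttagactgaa
ACTA2 with 1 letter off, nearer to the start, chr10:88952820-88952859, minus strand, GRCh38.p14: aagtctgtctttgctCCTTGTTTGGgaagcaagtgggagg
CALD1 with 1 letter off, chr7:134711458-134711497, plus strand, GRCh38.p14: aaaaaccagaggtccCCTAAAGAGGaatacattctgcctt

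Counted from the start of transcription, the box lies at -89 in CNN2, -94 in FLNA and -171 in ACTN1. All 3 genes had a log2FC below 0 in each pair, as did TAGLN, TPM1 and CALD1, which had no full match or no window. The 3 genes differed in size and call. FLNA was called lower in all 3 pairs, CNN2 in PEO4 and ACTN1 in PEA2. The call of CNN2 in PEO4 held in every alternative fit that tested against no change. The call of ACTN1 depended on the processing as given below, as did the lack of a call of CNN2 in CP70 and PEA2. TPM1, whose window held no match, was also called lower in every pair.

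ACTA2, TAGLN and MYL9 were expressed mainly in A2780 and CP70, and not every smooth muscle gene followed them. CSRP1 was at 3.41 CPM in A2780 and 0.286 in CP70, and at 116 or more in each serous line. MYLK was at 20.7 and 12.4 CPM in A2780 and CP70 and at 53.6 or more in each serous line. SYNPO2 was highest in A2780, at 160 CPM, and was at 2.76 in CP70. ACTA2 encodes the smooth muscle alpha-actin that polymerises into stress fibres, and its gene lies at chr10:90694831-90751096 on the minus strand of GRCh37, where it overlaps FAS, STAMBPL1 and ACTA2-AS1 on the other strand. The libraries were strand-specific, but whether counting used the strand is not given in the sources used here, so reads of overlapping genes are uncertain. ACTA2 was at 6.12, 5.92 and 5.95 log2 CPM in the A2780 libraries and at 4.96, 5.03 and 4.94 in CP70. In PEA1 it was at 0.86, 0.10 and 1.37 and in PEA2 at 1.79, 2.41 and 2.52. In PEO1 it was at -0.29, -0.16 and 0.36 and in PEO4 at 1.38, 1.81 and 0.87. The libraries of each pair did not overlap, and the direction differed between the pairs.

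ACTA2 was thus 2.03-fold lower in CP70 than in A2780 (log2FC -1.02, SE 0.34, limma FDR 0.022). It was 2.76-fold higher in PEA2 than in PEA1 (log2FC 1.46, SE 0.34, FDR 0.000993) and 2.61-fold higher in PEO4 than in PEO1 (log2FC 1.38, SE 0.34, FDR 0.00275). The rises in the serous lines rest on 1 to 4 reads per library in PEA1, 6 to 18 in PEA2, 2 to 8 in PEO1 and 4 to 10 in PEO4, while A2780 and CP70 had 116 to 248. The fall in CP70 lost its call (FDR between 0.0502 and 0.0698) without A2780 replicate 1 and without each of the CP70 replicates.

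TAGLN encodes transgelin, or SM22-alpha, an actin-binding protein of smooth muscle and an early mark of its differentiation. The gene lies at chr11:117070086-117078180 on the plus strand of GRCh37 and overlaps PCSK7 on the other strand. TAGLN was at 7.47, 7.06 and 7.05 log2 CPM in A2780 and at 6.06, 5.80 and 5.73 in CP70. In the PEA pair it was at 3.29, 3.15 and 3.33 in PEA1 (12 to 17 reads) and at 0.42, 1.11 and -2.13 in PEA2 (2, 7 and 0 reads). The PEO1 libraries were at 0.84, 1.76 and 1.13 and in PEO4 at 1.17, 1.12 and 0.87, with 4 to 14 reads. The libraries were apart in the first 2 pairs and overlapped in the PEO pair.

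The fall of TAGLN in PEA2 was the largest of the 9 genes in that pair, 11.0-fold (log2FC -3.46, SE 0.52, limma FDR 8.46e-06). Without PEA2 replicate 3, the library with 0 reads, it was -2.50, and without PEA2 replicate 2 it was -4.12. TAGLN was 2.51-fold lower in CP70 (log2FC -1.33, SE 0.52, FDR 0.0468). That call is at the edge of the threshold and was lost in 14 of 18 fits that left out 1 library, with an FDR of at most 0.134. The call held with the A2780 pair fitted alone and with voom weights (FDR 6.26e-08 for the latter), and it was lost with no variance trend (FDR 0.0736) and without scaling factors (FDR 0.052). In PEO4 the difference was -0.19 with a 95% interval from -1.27 to 0.88, so a change of less than about that size was not detectable at this depth.

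MYL9 encodes the regulatory light chain of smooth muscle myosin, whose phosphorylation by kinases such as MYLK switches contraction on. It lies at chr20:35169900-35179850 on the plus strand of GRCh37. MYL9 was at 7.36, 7.20 and 7.16 log2 CPM in A2780 and at 6.67, 6.83 and 6.78 in CP70. It was at 3.75, 4.13 and 4.13 in PEA1 and at 1.79, 2.98 and 1.78 in PEA2. MYL9 in PEO1 was at -0.29, -2.48 and -0.03 (2, 0 and 6 reads) and in PEO4 at 2.75, 2.70 and 3.76 (19, 19 and 33 reads). No pair overlapped, and the PEO pair stood out by its direction.

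MYL9 was 3.52-fold lower in PEA2 (log2FC -1.82, SE 0.47, limma FDR 0.00215) and 16.1-fold higher in PEO4 (log2FC 4.01, SE 0.47, FDR 8.28e-07). The size of the rise depends on the 0 reads in PEO1 replicate 2, and without that library it was 3.23. With 2 reads added in place of 0.5 it was 3.11. The difference in CP70 was -0.48 with a 95% interval from -1.46 to 0.49 (FDR 0.435), although it passed with the A2780 pair fitted alone (FDR 0.00085) and with voom weights (FDR 0.00201).

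**Figure D2:**
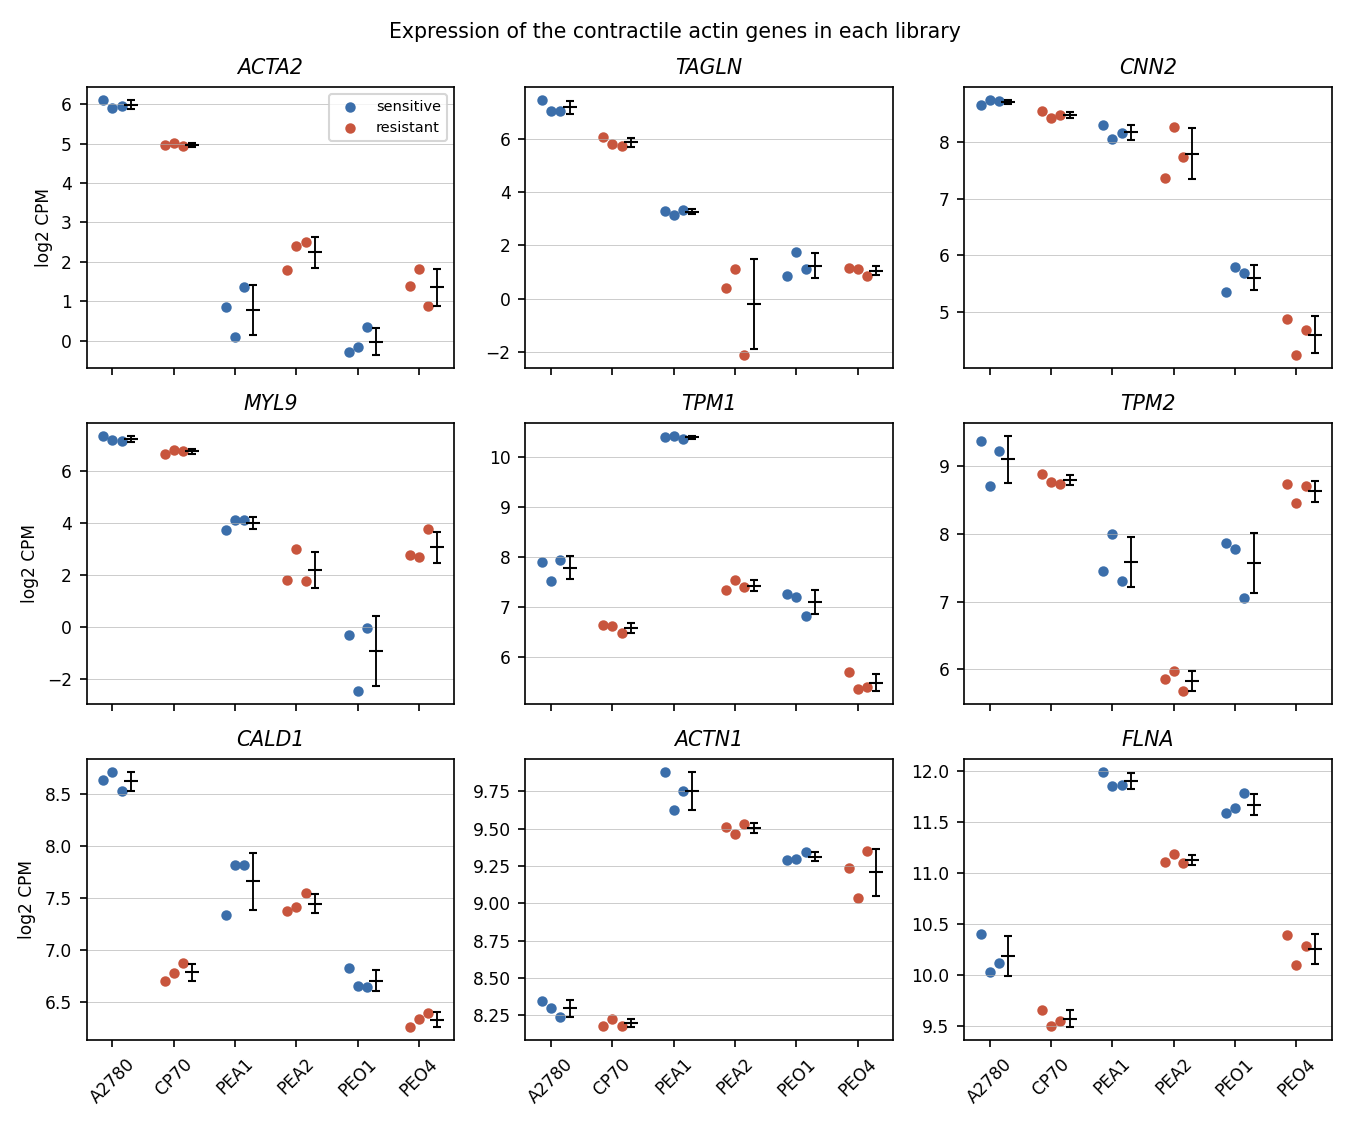
Expression of the 9 genes in log2 CPM (vertical axis, a separate scale for each gene) in the 3 libraries of each line (points, blue for sensitive and red for resistant), with the mean and SD of the line in black. ACTA2, TAGLN and MYL9 stand highest in A2780 and CP70, ACTN1 stands lowest there, and TPM1 stands alone at 10.40 in PEA1.

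Across all 18 libraries, every A2780 and CP70 library lay above each serous library for ACTA2, TAGLN and MYL9. Their lines spanned 6.03, 7.39 and 8.18 log2 units between the lowest and the highest mean, the widest ranges of the 9 genes. For ACTA2 the order was A2780, CP70, PEA2, PEO4, PEA1 and PEO1, and neighbours from PEA2 downward overlapped. For TAGLN it was A2780, CP70, PEA1, PEO1, PEO4 and PEA2, with PEO1, PEO4 and PEA2 overlapping. For MYL9 it was A2780, CP70, PEA1, PEO4, PEA2 and PEO1. There PEO4 overlapped with PEA1 and with PEA2, while PEA1 and PEA2 were apart.

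Tropomyosins form the coiled coils that lie along actin filaments and set which myosins and regulators can reach them. TPM1 lies at chr15:63334819-63364114 on the plus strand of GRCh37, where TPM1-AS overlaps it. TPM1 was at 7.90, 7.52 and 7.93 log2 CPM in A2780 and at 6.64, 6.62 and 6.47 in CP70. It was at 10.40, 10.43 and 10.36 in PEA1 and at 7.34, 7.54 and 7.40 in PEA2. TPM1 in PEO1 was at 7.25, 7.21 and 6.82 and in PEO4 at 5.69, 5.36 and 5.41. In each pair all resistant libraries were below all sensitive ones, with at least 104 reads in every library.

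TPM1 was 2.31-fold lower in CP70 (log2FC -1.21, SE 0.12, limma FDR 1.12e-07), 7.83-fold lower in PEA2 (log2FC -2.97, FDR 1.42e-13) and 3.04-fold lower in PEO4 (log2FC -1.61, FDR 3.54e-09). These calls held in every alternative fit that tested against no change. The fall was larger in the PEA pair than in the A2780 pair (difference 1.76, FDR 5.54e-08) and than in the PEO pair (difference -1.36, FDR 1.71e-06). The A2780 and PEO pairs differed by 0.40 with an FDR of 0.0685.

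TPM2, the beta-tropomyosin of muscle, lies at chr9:35681989-35690053 on the minus strand of GRCh37 and overlaps no other annotated gene. It was at 9.38, 8.71 and 9.22 log2 CPM in A2780 and at 8.88, 8.77 and 8.74 in CP70, and these libraries overlapped (log2FC -0.31, 95% interval from -0.72 to 0.11). In PEA1 it was at 7.45, 8.00 and 7.30 and in PEA2 at 5.85, 5.97 and 5.67. In PEO1 it was at 7.86, 7.78 and 7.06 and in PEO4 at 8.73, 8.45 and 8.70. TPM2 therefore went down in one serous pair and up in the other.

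The fall of TPM2 in PEA2 was 3.37-fold (log2FC -1.75, SE 0.20, limma FDR 2.12e-07) and the rise in PEO4 was 2.09-fold (log2FC 1.06, SE 0.20, FDR 0.000197). The log2FC of the PEA and PEO pairs differed by -2.81 (FDR 5.03e-08). In PEO4, then, TPM1 and TPM2 went in opposite directions.

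The shares of TPM1, TPM3 and TPM4 shifted most in the PEA pair, where the leading gene changed from TPM1 to TPM4. That of TPM2 shifted most in the PEO pair. Counted as CPM per kilobase of the MANE Select transcript, TPM1 made up 71.4% ± 1.30 (SD, n = 3) of the 4 tropomyosin genes in PEA1 and 27.0% ± 0.624 in PEA2, where TPM4, the cytoskeletal tropomyosin, rose from 12.2% ± 1.31 to 48.2% ± 2.83. In the PEO pair the share of TPM1 went from 22.2% ± 0.560 to 6.53% ± 0.530 that of TPM2 from 31.8% ± 5.02 to 58.8% ± 1.84 and that of TPM4 from 35.6% ± 4.73 to 24.9% ± 1.47. In PEO1 the shares of TPM4 and TPM2 lay within their spread of each other. In the A2780 pair TPM1 went from 19.9% ± 0.986 to 10.8% ± 0.571, while TPM2 stayed within its spread (50.9% ± 5.91 and 51.2% ± 1.76). The share of TPM4 in PEA2 partly follows from the loss of TPM1, since the log2FC of TPM4 itself was 0.43 (SE 0.11, limma FDR 0.0017). TPM3 took between 5.82% and 15.6% in the 6 lines. Shares rest on 1 transcript length a gene, and the tropomyosin genes have many isoforms.

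**Figure D3:**
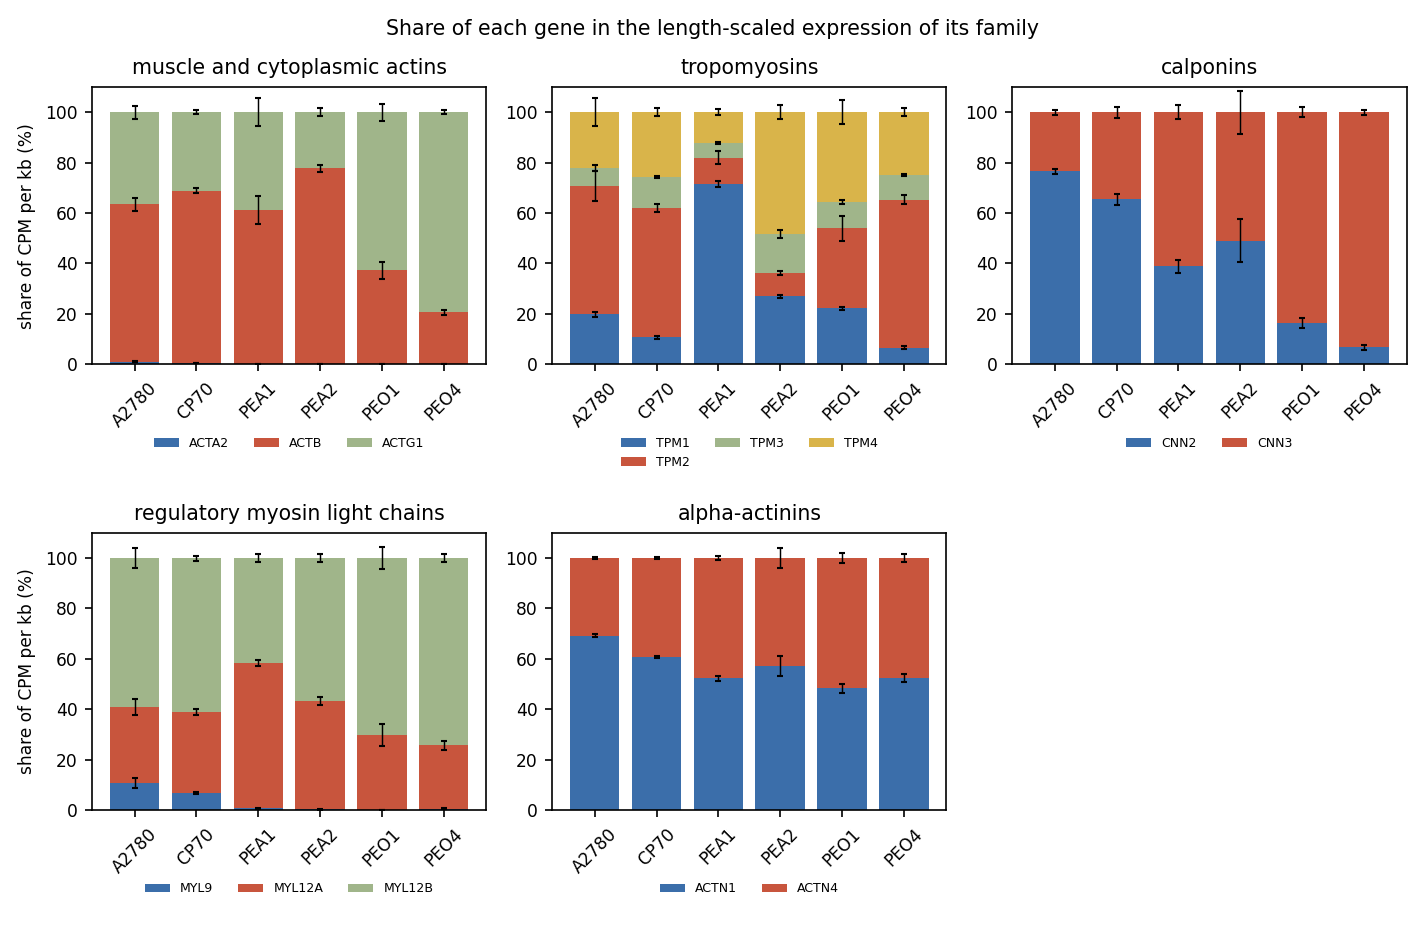
Share of each gene in the length-scaled expression (CPM per kilobase of the MANE Select transcript, vertical axis in %) of its family, for the 6 lines (horizontal axis), as the mean of 3 libraries with the SD drawn at the top of each segment. TPM1 takes 71.4% of the tropomyosins in PEA1 and 6.53% in PEO4, CNN2 takes 76.6% of the calponins shown in A2780 and 6.70% in PEO4, and MYL9 reaches 10.8% of the regulatory light chains in A2780 and at most 0.728% in the serous lines.

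CALD1 and CNN2 encode caldesmon and calponin 2, proteins that bind actin and restrain myosin. CALD1 lies at chr7:134429003-134655480 on the plus strand of GRCh37. It was at 8.63, 8.71 and 8.52 log2 CPM in A2780 and at 6.70, 6.78 and 6.87 in CP70, a 3.57-fold fall (log2FC -1.84, SE 0.11, limma FDR 3.6e-11). This was the largest change of the 9 genes in the A2780 pair. In PEA1 it was at 7.34, 7.82 and 7.82 and in PEA2 at 7.38, 7.41 and 7.55, which overlapped (log2FC -0.21, 95% interval from -0.45 to 0.02), although without PEA1 replicate 1 a fall was called (log2FC -0.37, FDR 0.00251). In PEO1 it was at 6.82, 6.65 and 6.64 and in PEO4 at 6.25, 6.34 and 6.40, a 1.30-fold fall (log2FC -0.38, SE 0.11, FDR 0.0103) that missed the threshold without PEO1 replicate 1 (FDR 0.0532). The fall in CP70 was larger than those in the PEA pair (difference -1.62, FDR 3.9e-08) and the PEO pair (difference -1.46, FDR 2.42e-07).

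CNN2 lies at chr19:1026585-1039067 on the plus strand of GRCh37. It was at 8.66, 8.74 and 8.72 log2 CPM in A2780 and at 8.54, 8.43 and 8.47 in CP70, a small gap with no overlap (log2FC -0.22, 95% interval from -0.59 to 0.14) that was called with the pair fitted alone (limma FDR 0.0268). In PEA1 it was at 8.31, 8.04 and 8.15 and in PEA2 at 7.37, 8.27 and 7.73 (log2FC -0.38, 95% interval from -0.75 to -0.01, FDR 0.07), and without the high PEA2 replicate 2 it was called (log2FC -0.62, FDR 0.00255). CNN2 in PEO1 was at 5.36, 5.79 and 5.68 and in PEO4 at 4.89, 4.24 and 4.69, a 2.01-fold fall (log2FC -1.01, SE 0.18, FDR 0.00011). CNN2 was thus lowest in the PEO lines, which did not overlap with any other line.

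CNN3, the acidic calponin of non-muscle cells, went the other way in CP70 (log2FC 0.56, SE 0.08, limma FDR 1.76e-05) and in PEO4 (log2FC 0.45, FDR 0.000217) and fell in PEA2 (log2FC -0.98, FDR 5.18e-09). Of CNN2 and CNN3 together per kilobase, CNN2 made up 76.6% ± 0.981 (SD, n = 3) in A2780 and 65.5% ± 2.20 in CP70. It made up 38.8% ± 2.64 in PEA1, 49.1% ± 8.54 in PEA2, 16.4% ± 1.87 in PEO1 and 6.70% ± 0.945 in PEO4.

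The crosslinkers FLNA and ACTN1 were higher in the serous lines PEA1, PEA2 and PEO1 than in A2780 and CP70, opposite to ACTA2, TAGLN and MYL9. FLNA encodes filamin A, which joins filaments into networks and ties them to the membrane, and lies at chrX:153576892-153603002 on the minus strand of GRCh37. It was at 10.40, 10.03 and 10.11 log2 CPM in A2780 and at 9.66, 9.49 and 9.55 in CP70. It was at 11.99, 11.86 and 11.87 in PEA1 and at 11.11, 11.19 and 11.10 in PEA2. In PEO1 it was at 11.59, 11.64 and 11.78 and in PEO4 at 10.39, 10.09 and 10.28. Every resistant library was below every sensitive library of its pair.

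FLNA was 1.53-fold lower in CP70 (log2FC -0.62, SE 0.11, limma FDR 0.000103), 1.71-fold lower in PEA2 (log2FC -0.78, FDR 3.62e-06) and 2.67-fold lower in PEO4 (log2FC -1.42, FDR 2.91e-09). These calls, too, held in each such fit. The fall was larger in the PEO pair than in the A2780 pair (difference 0.80, FDR 0.000226) and the PEA pair (difference 0.64, FDR 0.00131). The latter difference was 0.24 with quantile normalization (FDR 0.201).

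FLNC, the muscle filamin, changed far more than FLNA in the A2780 and PEO pairs. It was at 7.03 ± 0.21 log2 CPM (SD, n = 3) in A2780 and at -0.32 ± 1.02 in CP70, which had 1 to 7 reads (log2FC -7.35, SE 0.35, limma FDR 6.8e-13). In PEO4 it was lower than in PEO1 (log2FC -3.86, FDR 2.76e-08), and in PEA2 it was higher than in PEA1 (log2FC 1.13, FDR 0.0077).

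ACTN1 encodes alpha-actinin 1, the crosslinker of stress fibres and focal adhesions, and lies at chr14:69340845-69446157 on the minus strand of GRCh37. It was at 8.35, 8.30 and 8.24 log2 CPM in A2780 and at 8.18, 8.23 and 8.18 in CP70. It was at 9.88, 9.63 and 9.76 in PEA1 and at 9.51, 9.47 and 9.53 in PEA2. The PEO1 libraries were at 9.29, 9.30 and 9.35 and those of PEO4 at 9.24, 9.04 and 9.35. A2780 and CP70 thus did not overlap with the serous lines. Its differences within pairs were small. The log2FC was -0.10 in CP70 (95% interval from -0.28 to 0.08), -0.25 in PEA2 (95% interval from -0.43 to -0.07, limma FDR 0.0154) and -0.10 in PEO4 (95% interval from -0.28 to 0.07). The call in PEA2 was lost without PEA1 replicate 1 (FDR 0.0861) and with the pair fitted alone (FDR 0.0565), whereas quantile normalization gave a larger fall (log2FC -0.53, FDR 1.06e-05).

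The pattern across lines split the 9 genes. Over the 18 libraries, Pearson's r of log2 CPM was 0.86 between ACTA2 and MYL9, 0.82 between TAGLN and MYL9 and 0.78 between ACTA2 and TAGLN. It was also 0.86 between ACTN1 and FLNA. Between the 2 groups it was negative, -0.87 for ACTA2 with ACTN1 and -0.77 for ACTA2 with FLNA. TPM1 and TPM2 had an r of -0.24. The points share their line in threes, so these values describe 6 lines more than 18 independent samples.

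**Figure D4:**
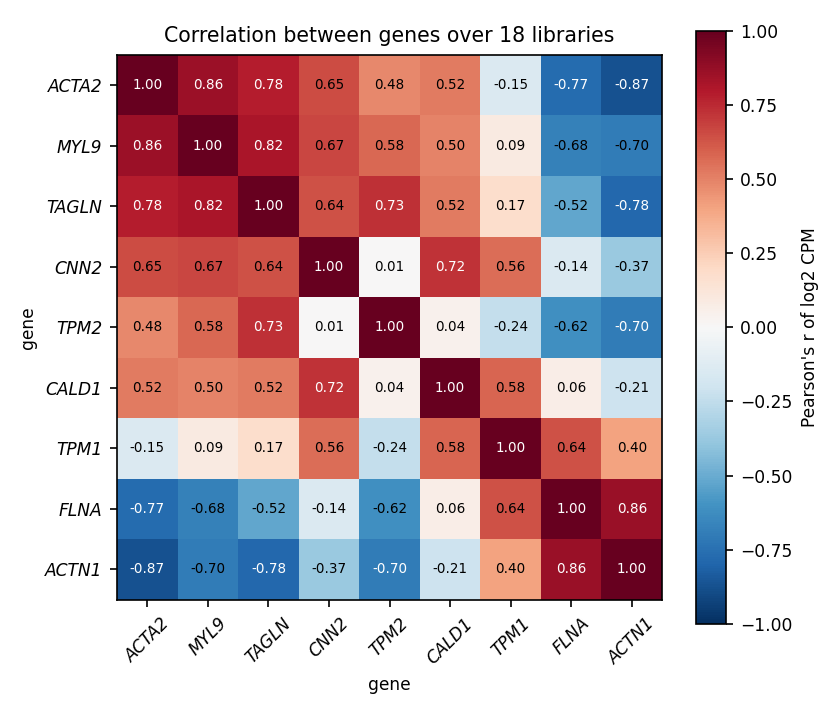
Pearson's r of log2 CPM between each pair of the 9 genes (both axes) over 18 libraries, from -1 in blue to 1 in red. ACTA2, MYL9 and TAGLN form a block with r of 0.78 to 0.86, and the same genes have r from -0.52 to -0.87 with FLNA and ACTN1.

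Per kilobase of transcript, the leading gene of the 9 also differed between lines. TPM2 led in A2780 (471 CPM per kilobase), in CP70 (375) and in PEO4 (334). TPM1 led in PEA1 (1107), and FLNA led in PEA2 (264) and PEO1 (384). The last 3 places in each serous line were taken by ACTA2, TAGLN and MYL9, at 0.236 to 5.80 CPM per kilobase. In A2780 these 3 genes were at 39.0 to 54.4 and also in the last places.

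Against the paralogs that all cells use, ACTA2 and MYL9 stayed minor in every line. ACTA2 was 1.08% ± 0.0383 (SD, n = 3) of ACTA2, ACTB and ACTG1 per kilobase in A2780 and 0.365% ± 0.0157 in CP70, and it was at most 0.0628% in the serous lines. MYL9 was 10.8% ± 1.82 of the regulatory light chains MYL9, MYL12A and MYL12B in A2780 and 6.65% ± 0.376 in CP70, and 0.0402% to 0.728% in the serous lines. The coding sequences of these actins, and those of MYL12A and MYL12B, are near-identical, so how their reads were split is uncertain. ACTB itself rose in CP70 (log2FC 0.67, SE 0.14, limma FDR 0.000714) and in PEA2 (log2FC 0.44, FDR 0.0112) and fell in PEO4 (log2FC -1.29, FDR 4.73e-07). ACTG1 rose in CP70 (log2FC 0.31, FDR 0.0204), fell in PEA2 (log2FC -0.70, FDR 6.82e-06) and was at -0.08 in PEO4 (95% interval from -0.30 to 0.13).

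The size of the change differed between pairs for 5 or 6 of the 9 genes, a share to be read against that of all genes. Tested as a difference of 2 log2FC values in the same limma fit, 5 of the 9 genes differed between the A2780 and PEA pairs, where 57.5% of all genes did. It was 6 of 9 between the A2780 and PEO pairs, against 47.5% of all genes, and 6 of 9 between the PEA and PEO pairs, against 58.7%. The largest such difference was that of MYL9 between the PEA and PEO pairs, -5.83 (SE 0.66, FDR 3.04e-07).

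SRF, the factor named above, was called in CP70 alone. It was at 7.07 ± 0.08 log2 CPM (SD, n = 3) in A2780 and 6.47 ± 0.10 in CP70, with a log2FC of -0.59 (SE 0.14, limma FDR 0.00192). It was at 5.99 ± 0.15 and 5.95 ± 0.31 in PEA1 and PEA2 and at 5.03 ± 0.09 and 5.12 ± 0.21 in PEO1 and PEO4, with an FDR of 0.818 and 0.653. The cofactor MKL2 was higher in CP70 (log2FC 0.69, FDR 0.000729) and in PEA2 (log2FC 1.22, FDR 5.22e-07) and was at -0.06 in PEO4 (FDR 0.789). MKL1 was higher in PEA2 (log2FC 0.76, FDR 0.000709), with overlapping libraries, and had a log2FC of -0.40 in CP70 (FDR 0.068) and -0.09 in PEO4.

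MYOCD, the cofactor of smooth and cardiac muscle, was seen in PEA2 alone. Its 3 PEA2 libraries had 41 to 49 reads, the 3 PEA1 libraries had 0 each, and no library of the other 4 lines had more than 1. Set against 3 reads in each PEA1 library, MYOCD was at least 9.37-fold higher in PEA2. In these PEA2 libraries TAGLN had 0 to 7 reads and MYL9 6 to 27, both lower than in PEA1, while ACTA2 had 6 to 18 and was higher. The ternary complex factors ELK1, ELK3 and ELK4 share SRF and compete with the MKL proteins for it. ELK1 was not called in any pair (log2FC 0.09, 0.20 and 0.05, FDR 0.715, 0.334 and 0.862). ELK3 rose in CP70 (log2FC 1.14, FDR 2.75e-06) and PEA2 (log2FC 0.52, FDR 0.00495) and was not called in PEO4 (log2FC -0.30, FDR 0.113). ELK4 rose in CP70 (log2FC 1.09, FDR 1.84e-08) and fell in PEO4 (log2FC -1.10, FDR 3.3e-08), and was not called in PEA2 (log2FC 0.20, FDR 0.0851). Of the 8 genes of SRF and its cofactors, 3 were higher and 1 lower in CP70, 4 higher and 0 lower in PEA2, and 1 higher and 1 lower in PEO4. Over all genes, 22.2% were higher and 17.7% lower in CP70, 32.5% and 29.4% in PEA2, and 19.6% and 21.9% in PEO4.

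Other contractile isoforms and their regulators were 14 of 19 listed genes in the table, while the muscle genes ACTG2, ACTC1, MYH11, LMOD1 and DES were not analysed here. Of the 14, 7 were higher and 2 lower in CP70, 5 higher and 6 lower in PEA2, and 4 higher and 4 lower in PEO4, with median log2FC of 0.28, -0.35 and -0.11. The shares of all genes higher and lower were 22.2% and 17.7%, 32.5% and 29.4%, and 19.6% and 21.9% in the same order. MYLK, the kinase of MYL9, fell in CP70 (log2FC -0.77, limma FDR 0.000109) and PEA2 (log2FC -1.44, FDR 1.64e-08) and rose in PEO4 (log2FC 1.01, FDR 4.72e-06). In each pair MYLK and MYL9 had log2FC values of the same sign. SYNPO2, an actin-bundling protein of muscle, went from 339 to 673 reads a library in A2780 to 10 to 18 in CP70 (log2FC -5.86, FDR 1.85e-07) and rose in PEO4 (log2FC 1.76, FDR 0.0295) from 1 to 7 reads to 7 to 11. MYH14, a non-muscle myosin heavy chain of epithelia, rose in CP70 (log2FC 1.61, FDR 0.000535) and PEA2 (log2FC 3.25, FDR 5.42e-08) and fell in PEO4 (log2FC -1.58, FDR 0.000625).

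Of 18 other crosslinkers and focal adhesion genes, 6 were higher and 8 lower in CP70, 7 higher and 5 lower in PEA2, and 3 higher and 8 lower in PEO4, with median log2FC of -0.13, 0.11 and -0.31. Beside these stand 22.2% higher and 17.7% lower of all genes in CP70, 32.5% and 29.4% in PEA2, and 19.6% and 21.9% in PEO4. TES, the focal adhesion protein testin, fell from 745 to 1295 reads a library in A2780 to 4 to 10 in CP70 (log2FC -7.64, SE 0.19, limma FDR 3.86e-17) and rose in PEA2 (log2FC 1.70, FDR 2.44e-07). CSRP1, a LIM protein of smooth muscle, had 8 to 12 reads in A2780 and 0 to 2 in CP70, a ratio of 22.6 with a counting interval from 5.75 to 195, and had 178 or more reads in each serous library. LIMA1, which stabilises actin bundles, fell in CP70 (log2FC -1.65, FDR 1.42e-08) and PEO4 (log2FC -1.95, FDR 2.54e-09) and rose in PEA2 (log2FC 1.69, FDR 6.11e-09).

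**Figure D5:**
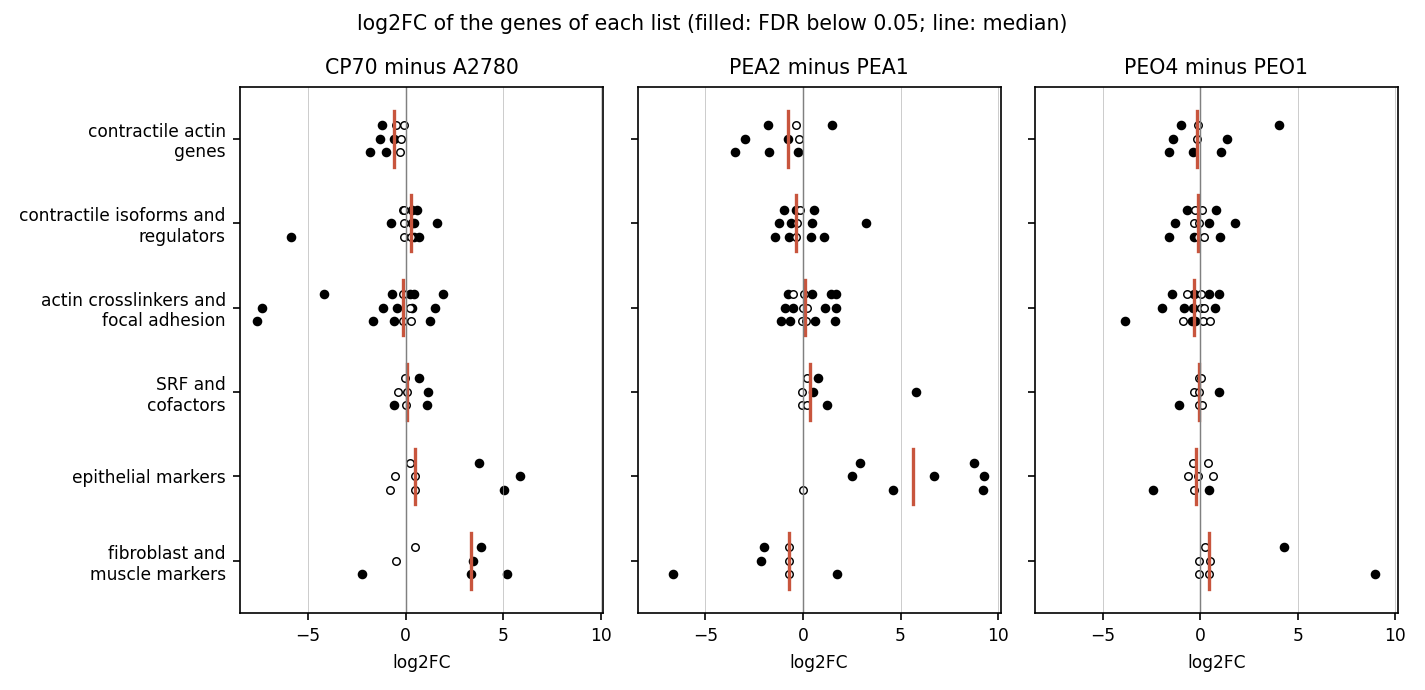
log2FC of every gene (points, filled at an FDR below 0.05) of the 9 contractile actin genes and of 5 other lists (vertical axis) in the 3 pairs, resistant minus sensitive on the log2 CPM scale (horizontal axis), with the median of each list as a red line. The contractile actin genes have medians of -0.62, -0.78 and -0.19, and the epithelial markers have a median of 5.65 in PEA2, where 7 of 8 rose.

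Markers of other cell types moved in the same comparisons. The 8 epithelial markers summed to 3.36 to 4.92 CPM in A2780, where none of the 8 exceeded 3 reads in every library and KRT7, CDH1 and PAX8 had 0 reads, and to 91.5 to 96.8 CPM in CP70 through EPCAM, KRT8 and KRT18. They summed to 427 to 583 CPM in PEA1 and 4147 to 4403 in PEA2, where CDH1 went from 0 to 4 reads a library to 1416 to 2187, KRT7 from 1 to 3 to 1968 to 3913, KRT19 from 1 to 3 to 1040 to 2129 and MUC16 from 0 to 5 to 211 to 576. PEO1 and PEO4 held 7413 to 8414 and 5663 to 7320 CPM. Of the 8 epithelial markers, 3 were called higher and 0 lower in CP70, 7 higher and 0 lower in PEA2, and 1 higher and 1 lower in PEO4. The shares of all genes called higher and lower were 22.2% and 17.7% in CP70, 32.5% and 29.4% in PEA2, and 19.6% and 21.9% in PEO4.

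Fibroblast and muscle markers were in the table for 7 of 12 genes. They summed to 524 to 734 CPM in A2780 and 903 to 1043 in CP70, mostly COL3A1. In CP70, 4 of the 7 were higher, LUM and COL1A2 among them, against 22.2% of all genes. RGS5, a pericyte gene, was lower in CP70 (log2FC -2.22, limma FDR 0.00156), against 17.7%. The 7 markers summed to 373 to 461 CPM in PEA1, mostly COL1A1 (mean 396 CPM), and to 5.61 to 9.87 in PEA2. In PEA2, 3 of the 7 were lower, against 29.4% of all genes. These were COL1A1 (log2FC -6.67, limma FDR 9.02e-12), RGS5 (log2FC -2.17, FDR 0.00108) and THY1. THY1 had only 0 to 2 reads in PEA1 and 0 in PEA2. COL1A2 was higher in PEA2, with 1 to 5 reads against 0, where 32.5% of all genes were higher. The 7 markers summed to 156 to 176 CPM in PEO1 and 231 to 235 in PEO4, mostly THY1 (means 162 and 152 CPM). COL3A1 went from 0 reads in PEO1 to 156 to 193 a library in PEO4. COL1A2 also rose in PEO4, from 1 to 2 reads to 22 to 30. The part of other cell types or cell states in the changes of the contractile actin genes was not tested.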

How the data were processed

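RNA-seq of 18 libraries was analysed. Per the labels, libraries were made with a directional kit, and the submitters' processing notes name Bowtie2, featureCounts, limma and hg19. The values the authors deposited are log2 CPM, computed from counts to which 0.5 reads were added, over library sizes that had been scaled. The filter on genes is not given in the sources used here. Whole reads came back from 100% of values (tolerance 0.05) and gave depth and floors.

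The log2 values were fitted with limma 3.58.1 in R 4.3.3, in 1 fit with a mean for each of 6 lines and a variance trend, with Benjamini-Hochberg adjustment over all genes. The fit was tested on simulated data. Alternatives were a fit of each pair by itself, only genes with a mean log2 value over 0, quantile normalization, library totals without scaling factors, 2 reads added, voom weights, no variance trend, the replicate block, treat with a 2-fold bound, and leaving out each library.

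The 10 genes and all lists were chosen with earlier results of these data known. From each other list, the text names at most 4 genes with the largest |log2FC| among those with an FDR below 0.05, a |log2FC| above 1 and no overlap in a pair, with SRF, MKL1, MKL2, MYLK, ACTB and ACTG1 always named. Other genes named (TPM3, TPM4, CNN3, EPCAM, KRT8, KRT18, PAX8, ELK1 and RGS5) were added after their values were seen. The 5 genes most like the mean Z score of the members, and the 5 most like TAGLN, were also named. Spans and lengths of genes came from GENCODE on GRCh37, and promoter windows from RefSeq on GRCh38.p14. ATAC-seq and platinum adduct data were not used here. 1 further gene list and 1 further gene were analysed and are not reported here.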

Additional observations from a re-analysis of the deposited data

Results flagged for a closer look

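A change that differed between pairs was found for 17 of the 27 tests (9 genes, 3 comparisons of pairs) at a limma FDR below 0.05. Such calls were also frequent over the whole table. They covered 57.5% of its genes for A2780 versus PEA, 47.5% for A2780 versus PEO and 58.7% for PEA versus PEO. The count of 17 alone therefore does not set the contractile actin genes apart. Each difference given below is the log2FC of the first pair minus that of the second.

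Between the A2780 and PEA pairs, the difference was -2.49 for ACTA2, which fell in CP70 and rose in PEA2, and 2.13 for TAGLN, 1.76 for TPM1 and 1.45 for TPM2, which had the lower log2FC in the PEA pair. It was -1.62 for CALD1, whose fall was mainly in CP70. The value of TAGLN was 1.17 without PEA2 replicate 3, which had 0 reads, and 2.79 without PEA2 replicate 2.

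Between the A2780 and PEO pairs, ACTA2 differed by -2.40, MYL9 by -4.49 and TPM2 by -1.37, each with the higher log2FC in PEO4. CALD1 differed by -1.46, and CNN2 and FLNA differed by 0.78 and 0.80, with the larger falls in PEO4. CNN2 missed the threshold without PEO4 replicate 2 (0.60, FDR 0.0506). The difference of MYL9 was -3.72 without PEO1 replicate 2, which had 0 reads.

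Between the PEA and PEO pairs, MYL9 differed by -5.83, TAGLN by -3.27, TPM2 by -2.81 and TPM1 by -1.36, each with the lower log2FC in PEA2. MYL9 was at -5.05 without PEO1 replicate 2, and TAGLN at -2.30 without PEA2 replicate 3 and -3.92 without PEA2 replicate 2. CNN2 differed by 0.63 and FLNA by 0.64. The difference of CNN2 lost its call in 6 of 18 fits without 1 library, with an FDR of at most 0.124 among the fits without PEA1 replicate 2 or 3, PEA2 replicate 2, PEO1 replicate 2 or 3 and PEO4 replicate 2. It was also lost with no variance trend (FDR 0.0737), with quantile normalization (0.44, FDR 0.148) and without scaling factors (0.36, FDR 0.212), and was 0.39 without PEA2 replicate 2.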

How the results depend on the processing

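Among single-gene values under another setting, 376 kept direction and side of the threshold, 18 passed it newly, 7 lost it and 4 reversed. With 1 library left out, 925, 9, 27 and 11 did. The reversed values were all near 0 and never called. The ACTA2 difference between the PEA and PEO pairs (0.08) was -0.18 with 2 reads added and -0.19 without scaling factors, and ranged from -0.26 to 0.38 without 1 library. That of CALD1 (0.16) was -0.11 without scaling factors and -0.0458 with quantile normalization. Without 1 library, the difference between the A2780 and PEO pairs for ACTN1 ranged from -0.0803 to 0.0752, that between the A2780 and PEA pairs for CNN2 from -0.0573 to 0.39, and the TAGLN log2FC in PEO4 from -0.39 to 0.0654. Genes lower in CP70 numbered 5, and 3 to 5 without 1 library.

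Genes differing between the A2780 and PEA pairs rose from 5 to 8 with quantile normalization and without scaling factors, which moved the median log2FC of all genes in the PEA pair to -0.10 and -0.24. Against a 2-fold bound (treat), the contractile actin genes numbered 0 higher and 1 lower in CP70, 0 and 3 in PEA2, and 1 and 2 in PEO4, beside 1251, 2295 and 848 of all 12853 genes, and the other lists 12 higher and 5 lower in CP70, 12 and 2 in PEA2, and 2 and 4 in PEO4, since fewer genes pass such a bound. With a replicate block in the fit, the genes called numbered 5056, 7918 and 5285 (5124, 7958 and 5336 without it), and no count of contractile actin genes moved. Within a pair, the deviations of same-numbered libraries from their line means correlated between -0.116 and 0.0901. Such weak values cannot show whether the numbers stand for a shared batch, and no label says what the numbers mean. Genes with under about 20 reads in a line (ACTA2, TAGLN and MYL9 in serous lines) have changes known only roughly, and genes in PEA1, with the fewest reads, are measured least well.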

Other observations

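Among 12288 genes with a mean log2 CPM above 3 in at least 1 line, those most like the mean Z score of the 9 genes over the 18 libraries were SLC16A1 (Pearson's r 0.967), GLOD4 (0.965), KIAA0368 (0.961), CDC42BPA (0.956) and PELP1 (0.956). CDC42BPA encodes a kinase of the actomyosin cytoskeleton. Those most like TAGLN were WWC2 (0.973), GYG2 (0.966), SLC25A15 (0.966), DCUN1D5 (0.966) and CBX2 (0.964). The 18 points are 6 lines in threes, and the mean Z score averages genes that split across the lines as given above. A link between the genes named here and the 9 genes was not tested.

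DIAPH3, a formin that nucleates actin filaments, was lower in the resistant line of each pair, with a log2FC of -0.81 in CP70, -1.21 in PEA2 and -0.93 in PEO4, with a limma FDR of at most 4.52e-05. DIAPH1, a related formin, was higher in each, with 0.24, 0.89 and 0.24 (FDR at most 0.0288). Both were picked out after their values were seen.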
